A study of Mus musculus with 20 samples.

Results

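The small nuclear RNAs (snRNAs) of cauda epididymosomes, the vesicles released into the last segment of the epididymis, were taken as the rows annotated as snRNA whose mean estimated count over 10 libraries was 30 or more in the first of 2 deposited tables, the one whose label says size-selected. This gave 73 rows, of 719 snRNA rows and 72034 features, and all 73 were also listed in the second table, labelled as not size-selected, which held 436 snRNA rows and 59035 features. MSUS males came from litters given unpredictable maternal separation of 3 h per day over the first 2 weeks after birth, with forced swim or restraint of the dams at unpredictable times, and Control males from litters left undisturbed. Both groups were 9 months old and had 5 animals each, MSUS animals 2, 4, 6, 8 and 14 and Control animals 3, 5, 7, 9 and 11. The labels give neither the mouse strain nor the litters, so a p-value here covers only the spread among these animals. The same NEBNext libraries were read in 2 runs, and each run is a table. The share of mature miRNAs was 10.9 to 17.02% per library in the first table and 52.4 to 72.2% in the second, which goes against the labels, so they are called with-selection and without-selection table by their labels only. Totals were 1872084 to 3647956 counts per library in the with-selection table and 215231 to 871461 in the without-selection table.

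Spliceosomal snRNAs are short, stable RNAs that pair with pre-mRNA and with each other while introns are removed. U1 pairs with the 5′ splice site, U2 with the branch site, and U5 holds the exon ends together. U11 and U12 do the work of U1 and U2 on a rare class of introns. Each carries a uridine-rich site on which a ring of Sm proteins is assembled in the cytoplasm before the particle returns to the nucleus. U7, which has its own version of this ring with Lsm10 and Lsm11, is not part of the spliceosome and acts in 3′ end processing of histone mRNAs. U4 and U6 join the spliceosome paired to each other.

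The 73 rows were sorted by alignment to the snRNAs that carry a name in the annotation. They comprised 40 U1 rows, 17 U2 rows, 7 U5 rows, 2 U12 rows, 1 U11 row, 1 U7 row and 5 rows without a named relative. Many are copies: the 73 rows held 59 distinct sets of values, since identical copies were given identical counts. Gm identifiers are therefore called U1 or U2 rows by sequence alone, and a single copy cannot be taken as a single active gene. Of the 73 rows, 33 lay in 8 groups of members spaced by less than 100000 bases, among them 8 U1 rows within chr3:96328425-96488893, 7 U1 rows within chr12:54696782-54738622, 5 U2 rows within chr11:101604850-101658428 and 4 U2 rows within chr1:72226240-72255198 (GRCm38). The rows just inside the threshold were Gm22122 and Gm25541, with mean counts of 31.5 and 31.7, and those just outside were Gm22472 and Gm22984, with 25.6 and 27.3.

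Named RNAs that 5 of the families are built on are shown 5′ to 3′ as DNA letters of the RNA strand, from GENCODE vM21 on GRCm38. Capitals mark a short Sm-type motif, ATTTNTG, or ATTTTTTG in Rnu11. Rnu1a1 lies at chr11:87422867-87423030 (+), Rnu2-10 at chr11:101658238-101658428 (+), Rnu12 at chr15:83149644-83149794 (+), Rnu11 at chr4:132270080-132270213 (-) and Rnu7 at chr6:124741225-124741286 (-).
Rnu1a1: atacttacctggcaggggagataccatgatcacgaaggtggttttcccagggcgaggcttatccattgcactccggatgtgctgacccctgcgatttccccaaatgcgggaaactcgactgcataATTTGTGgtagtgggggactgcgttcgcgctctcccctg
Rnu2-10: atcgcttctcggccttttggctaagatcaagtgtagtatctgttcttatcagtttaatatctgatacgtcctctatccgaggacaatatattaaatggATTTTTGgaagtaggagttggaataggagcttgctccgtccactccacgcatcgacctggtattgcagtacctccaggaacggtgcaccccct
Rnu12: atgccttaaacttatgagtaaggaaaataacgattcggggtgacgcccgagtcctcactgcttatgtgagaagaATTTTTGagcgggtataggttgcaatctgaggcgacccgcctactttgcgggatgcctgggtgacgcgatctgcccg
Rnu11: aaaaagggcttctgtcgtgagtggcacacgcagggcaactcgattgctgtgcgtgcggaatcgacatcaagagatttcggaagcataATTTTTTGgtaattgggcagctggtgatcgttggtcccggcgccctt
Rnu7: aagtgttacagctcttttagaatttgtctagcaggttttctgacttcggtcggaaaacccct

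ATTTNTG, searched on the RNA strand only, was found in 52 of the 73 members (71.2%) and in 231 of the 1310 other annotated snRNA genes (17.6%). It occurred in 33 of 40 U1 rows, 14 of 17 U2 rows and both U12 rows. ATTTTTTG, which does not overlap with it, was found in all 7 U5 rows and in Rnu11, 8 of 73 members (11%), and in 11 of the 1310 others (0.84%). Neither string occurs in Rnu7. These are matches of letters over whole RNAs of unequal length, and they are given as a description. The members and the other genes also differ in family make-up. The others include 448 U6-like rows of the with-selection table, of which 0 are members, and identical copies were each counted. That table lists 719 of the 1383 annotated snRNA genes, so U6-like genes among the others number at least 448 and may be more.

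The U1 rows separated by their 3′ end in the with-selection table. There, 14 U1 rows whose last 20 bases are those of Rnu1b1 each had 0.998 to 1.18 times the Rnu1b1 count, as medians over the 10 libraries, while the 26 U1 rows with at least 1 difference in those bases had 0.00221 to 0.180 times. In no library did the groups overlap: the lowest ratio of the 14 rows in any library was 0.996 and the highest of the 26 rows was 0.325. The 14 rows took 88.1 to 94.6% of the U1 counts. In the without-selection table the groups overlapped, with medians of 0.944 to 1.26 for the 14 rows and of 0.102 to 1.06 for the 26, and the 14 rows took 55.8 to 73.2% of the U1 counts. Since the members were chosen by their level in the with-selection table, these ratios are a description.

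The last 20 bases of 6 of these rows show where they differ. Capitals mark bases that are not those of Rnu1b1 at the same distance from the 3′ end. The stretches lie at chr3:96359953-96359972 (-) in Rnu1b1, chr11:87423011-87423030 (+) in Rnu1a1, chr12:54734555-54734574 (-) in Gm24305, chr3:96460024-96460043 (-) in Rnu1b6, chr19:18732885-18732904 (+) in Gm23238 and chr1:171028110-171028129 (+) in Gm26110.
Rnu1b1: tgcgttcgcgctctcccctg
Rnu1a1: tgcgttcgcgctctcccctg
Gm24305: tgcgttcgcgctctcccctg
Rnu1b6: tgcgttcgcgcGctcccctg
Gm23238: tgcgttcgTgctctcAcctg
Gm26110: tgTgttcgTgctctcccctT
Rnu1b6 differs from Rnu1b1 here by T157G (reference base first, positions counted from 1 at the 5′ end of Rnu1b1). Outside these 20 bases Rnu1b6 differs too, with 166 bases against 165 in Rnu1b1 and 98.2% identity over the whole RNA. Its count was 0.0969 times that of Rnu1b1 in the median library of the with-selection table (range 0.0700 to 0.186) and 0.753 times in the without-selection table (0.373 to 0.842). Gm24136 has the same last 20 bases as Rnu1b6, yet its count was 0.00693 times that of Rnu1b1 in the with-selection and 0.138 times in the without-selection table, so these bases alone do not fix the ratio. The Gm23238 ratio to Rnu1b1 was 0.132 in the with-selection and 0.975 in the without-selection table, and that of Gm26110 was 0.102 and 0.758.

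**Figure D1:**
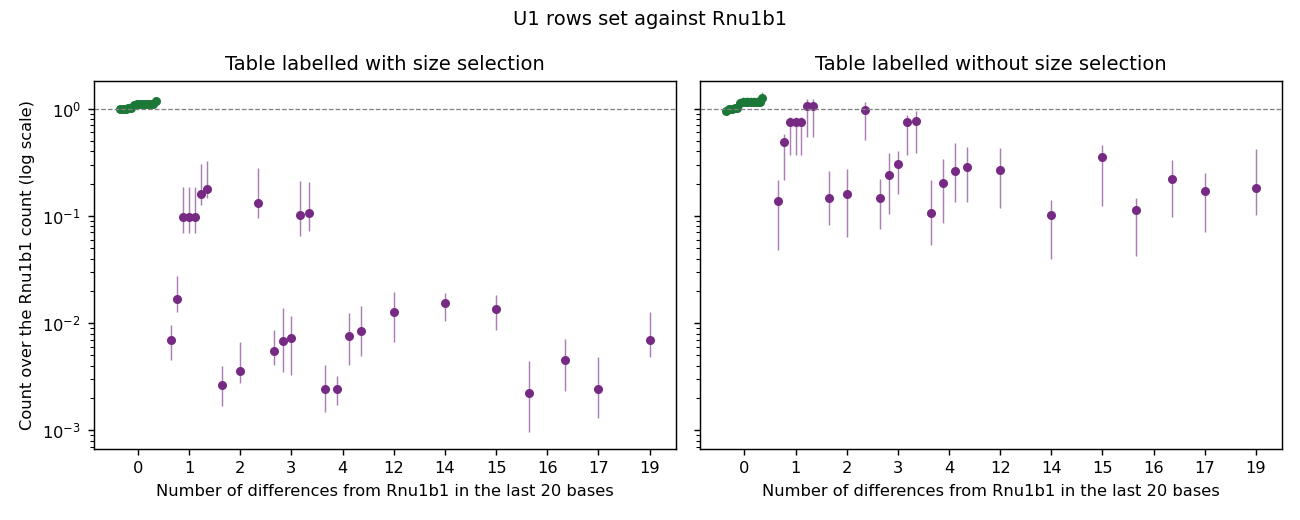
Each point is 1 of the 40 U1 rows, as its count over the Rnu1b1 count (median of 10 libraries, vertical log axis, bars from lowest to highest library), against the number of its last 20 bases that differ from Rnu1b1, with the with-selection table on the left. The 14 rows without a difference (green) sit near 1 in both tables, and the 26 others (purple) reach at most 0.180 in the with-selection table and 1.06 in the without-selection table.

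In 2 copies with a single substitution outside the last 20 bases the count stayed close to that of Rnu1a1. Positions below are counted from the 5′ end of Rnu1a1. Gm24305, which differs from Rnu1a1 by A26G, had 0.978 times its count in both tables, and Gm22513, which differs by T60C, had 1.07 times in the with-selection table and 1.08 times in the without-selection table. By contrast, Gm24924 and Gm26244 on chromosome 18 each differ from Rnu1a1 at 1 base, at positions 153 and 152, and had 0.166 and 0.148 times its count in the with-selection table, against 0.886 and 0.883 times in the without-selection table. Rnu1a1 and Rnu1b1 are 95.8% identical. In mice the U1a form is found in all tissues, and the U1b forms are known mainly from embryonic and stem cells. Rnu1a1 had 1.10 times the Rnu1b1 count in the with-selection and 1.15 times in the without-selection table, but both share most of their bases, and no source used here says how reads were divided between such rows.

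U2 copies gave a graded set of ratios. Gm26316, with C170T relative to Rnu2-10, had 0.664 times the Rnu2-10 count in the with-selection and 0.915 times in the without-selection table. Gm23444, with G109C, had 0.457 and 0.436 times, so that its deficit was of like size in both tables. Gm25813, with C78T and G131C, had 0.436 times in the with-selection and 0.985 times in the without-selection table. Gm25360, with C78T, A95G, G109C and C154T, had 0.0880 and 0.165 times. Partial copies were low throughout: Gm23744, which matches Rnu2-10 only over its bases 1 to 77, had 0.0290 and 0.0103 times its count, and Gm23240, which matches bases 2 to 95 of Rnu1a1, had 0.0136 and 0.0818 times the count of that RNA.

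Together the 73 rows took a larger share of the with-selection libraries than of the without-selection libraries, and U1 made up most of the difference. The rule used the with-selection counts, so this too is a description. Over all snRNA rows, chosen or not, the share was 5.43 to 17.2% in the with-selection and 1.13 to 3.32% in the without-selection libraries. In the with-selection table the members took 12.6, 8.39, 15.7, 5.41 and 12.4% of all counts in MSUS 2, 4, 6, 8 and 14, and 9.99, 8.72, 9.34, 17.1 and 12.8% in Control 3, 5, 7, 9 and 11. The groups overlapped, with MSUS 8 the lowest and Control 9 the highest. Among the without-selection libraries the shares were 2.02, 1.99, 1.93, 1.47 and 1.09% in the MSUS libraries and 1.21, 1.08, 1.83, 3.23 and 1.55% in the Control libraries, again with Control 9 the highest. U1 rows held 77.2 to 88.9% of the members' counts in the with-selection table and 30.7 to 49.3% in the without-selection table. U2 rows held 7.41 to 17.5% and 37.9 to 57.1%. The U1 count was 4.40 to 12.01 times the U2 count in the with-selection libraries and 0.542 to 1.30 times in the without-selection libraries, above 1 in 3 of 10.

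**Figure D2:**
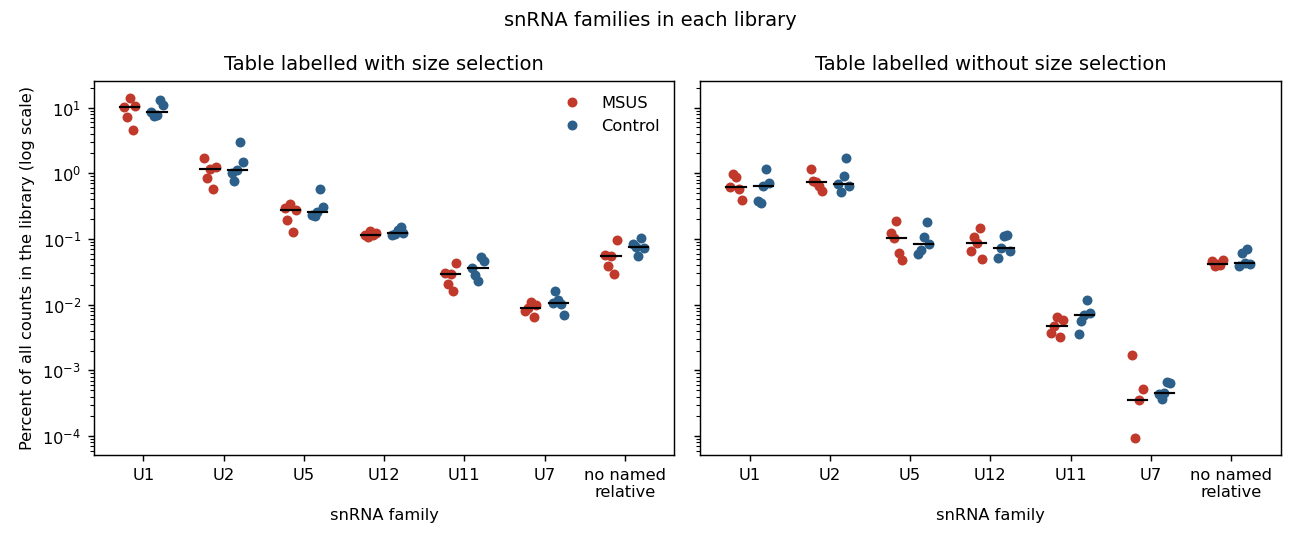
Points are libraries, as the percent of all counts held by each snRNA family (vertical log axis), with MSUS left of Control and bars at the group medians. U1 stands above U2 in every with-selection library, in the without-selection table U1 and U2 lie together, and MSUS and Control points overlap in every family. Rnu7 had a count of 0 in 1 MSUS library of the without-selection table, which a log axis cannot show.

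The families moved unequally between the tables. As a ratio of library shares, with-selection over without-selection, U1 had a median of 15.5 over the 10 animals (range 7.30 to 26.6) and U11 one of 4.99 (3.36 to 10.1). U5 followed with 2.83 (1.86 to 5.74), U12 with 1.57 (0.795 to 2.51), U2 with 1.48 (0.897 to 2.33) and the rows without a named relative with 1.30 (0.730 to 2.16). U7 had 19.3 over the 9 animals with a count above 0 in both tables, but its without-selection counts were only 0 to 6.33, so that ratio is loose. The tables were scaled separately and the share of every class of RNA is bound to the others, so the order of the families is the part of this comparison that does not rest on the totals.

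**Figure D3:**
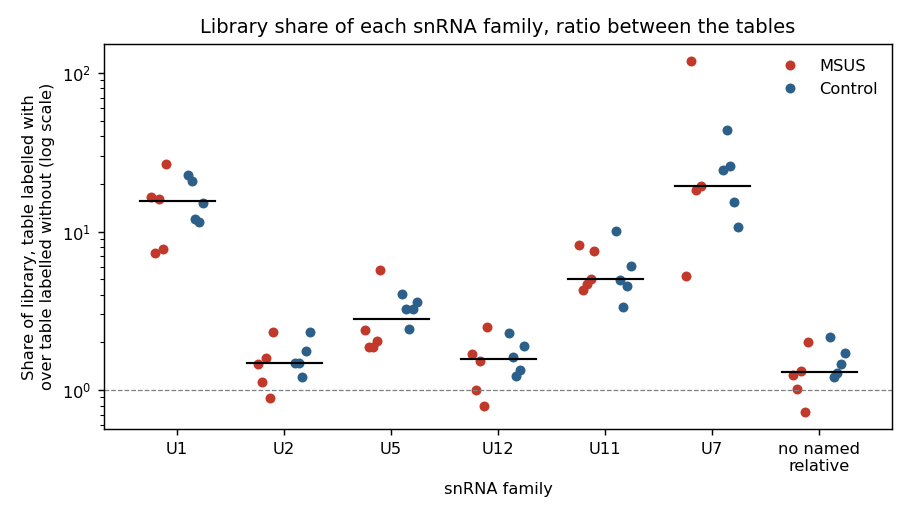
Points are animals, as the library share of a family in the with-selection table over that in the without-selection table (vertical log axis), with MSUS left of Control, a bar at the median and a dashed line at 1. U1 and U7 lie highest and U2, U12 and the rows without a named relative lie nearest to 1.

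Levels per length put U1 first in the with-selection table. Family sums run over 40 U1 and 17 U2 rows but 1 row each for U11 and U7. How reads were divided among copies is not known. Dividing by length takes reads as even along the RNA, which was not tested. As CPM of the family sum per base of its named RNA, U1 averaged 569 ± 219 in MSUS and 582 ± 148 in Control libraries (SD, n = 5 each), U2 57.9 ± 22.1 and 77.4 ± 46.8, and U5 21.3 ± 7.50 and 27.6 ± 12.9. U12 and U11, the named minor spliceosome RNAs, were lower. U12 averaged 7.79 ± 0.611 in MSUS and 8.58 ± 1.03 in Control libraries, and U11 2.09 ± 0.784 in MSUS and 2.78 ± 0.908 in Control libraries. U7 averaged 1.42 ± 0.284 in MSUS and 1.80 ± 0.524 in Control libraries, within the spread of U11. For the without-selection libraries U1 at 42.3 ± 14.3 in MSUS and 39.5 ± 19.6 in Control libraries did not stand apart from U2 at 40.0 ± 12.3 and 46.8 ± 24.9. Here U5 averaged 9.01 ± 4.72 in MSUS and 8.57 ± 4.13 in Control libraries, close to U12 at 5.99 ± 2.46 and 5.48 ± 1.86, and U11 averaged 0.356 ± 0.0990 in MSUS and 0.527 ± 0.222 in Control libraries.

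U6, the RNA at the catalytic centre of the spliceosome, was nearly missing from the counts. Rnu6 (chr17:13432033-13432139, minus strand) had 0.0200 to 0.249 counts per library in the with-selection table, and 448 U6-like rows together took 0.00291 to 0.00713% of the counts, with a highest row mean of 4.82. No row named for U4, U4atac or U6atac is annotated, so the 5 members without a named relative are given by identifier. Whether U4, U4atac or U6atac is among these 5 was not tested, so these RNAs cannot be called missing. Gm24265 (chr5:115489459-115489599) and Gm24407, its neighbour with 98.6% identity, had 340 to 1785 and 340 to 1613 counts per library in the with-selection table. Gm22710 had 53.0 to 212 counts there, Gm25541 had 10.9 to 77.0 and Gm22122, whose match to Gm24265 covers bases 1 to 66 of that RNA, had 17.1 to 50.2.

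The contrast of MSUS with Control, the comparison for which the study was designed, was tested row by row within each table. No snRNA row passed an adjusted p of 0.05 in the edgeR quasi-likelihood test with Benjamini-Hochberg adjustment, in the with-selection table (0 of 73, against 0.0% of 10998 features) or the without-selection table (0 of the 67 rows that passed the filter on low counts, against 0.0% of 1075). Among the with-selection libraries, 72 of 73 rows (58 of 59 distinct ones) had a positive log2 fold change, MSUS over Control. Of all features, 49.8% did. The median of the members was +0.45 against -0.0010 over all features. Many rows are copies or near copies, so they are not 73 separate measurements. An unadjusted p under 0.05 was reached by 23 of 73 rows (15 of 59 distinct ones), all 23 of them positive, and by 5.77% of all features in either direction and 3.46% in the positive one. In no member did the MSUS and Control values separate, against 0.864% of features. In the without-selection table, 59 of 67 rows (45 of 53 distinct ones) were positive, against 50.3% of features, and the median was +0.26 against +0.01. There 1 row, a positive one, reached an unadjusted p under 0.05. Of all features, 7.91% did so in either direction and 3.53% in the positive one. No member separated there either, against 1.4% of features.

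The sign of these medians depends on the scaling. With library size alone in place of TMM factors, the members' median was -0.24 in the with-selection table and -0.10 in the without-selection table, where the medians of all features were -0.58 and -0.30. With factors from mature miRNAs the members' medians were -0.17 and -0.12, and those of all features -0.52 and -0.32. Changing the scaling moves all features by nearly the same amount, so it does not test the members against the other features. In the with-selection table TMM factors ran from 0.411 in MSUS 8 to 1.76 in Control 9. The 3 highest there were those of Control 9, MSUS 14 and Control 11. For the without-selection libraries this order did not hold, with MSUS 14 (1.02) below Control 5 (1.06). Without Control 9, Control 11 and MSUS 14 no member was called. Of all features, 0 of 9015 were called in the with-selection and 2 of 973 in the without-selection table. The members' medians were then +0.76 and +0.53, against +0.0065 and -0.07 over all features. An unadjusted p under 0.05 (edgeR) was reached by 63 of 73 members and 887 of 9015 features in the with-selection table. In the without-selection table it was reached by 21 of 66 members and 168 of 973 features. The number of members at an unadjusted p under 0.05 also rested on single libraries. In the with-selection table it was 45 of 73 without MSUS 14, against 879 of 11059 features. Without MSUS 6 it was 3 of 73, against 548 of 11864 features. In the without-selection table it was 23 of 67 without MSUS 14, against 154 of 1111 features.

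**Figure D4:**
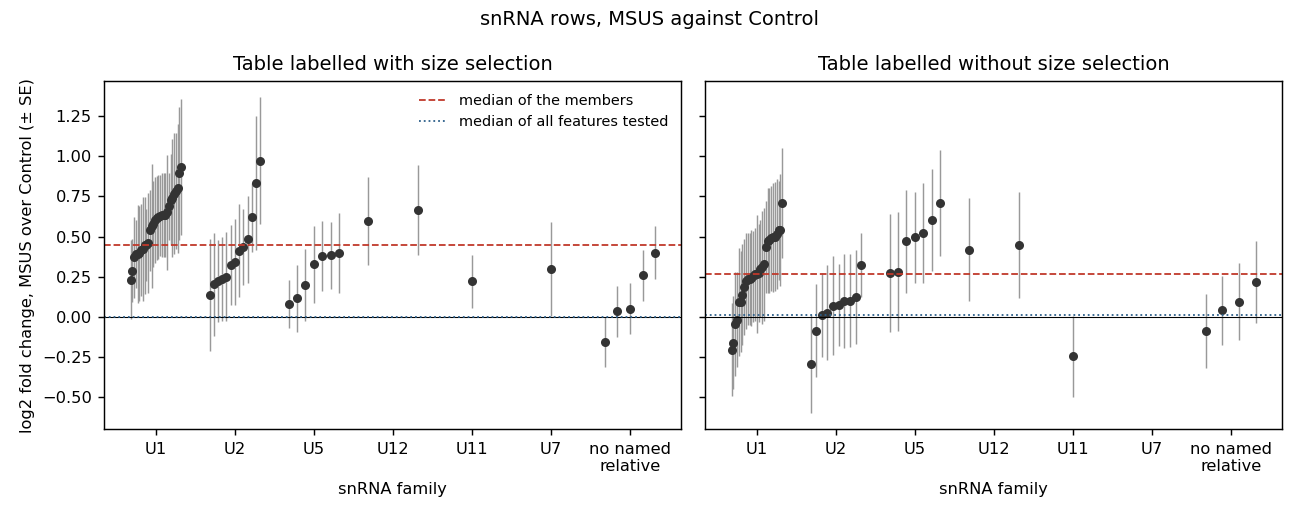
Points are snRNA rows (identical rows once), as the edgeR log2 fold change of MSUS over Control with its SE, by family. In the with-selection table all points but 1, Gm25541, are above 0, whereas in the without-selection table points lie on both sides, and the medians of the members (dashed) are +0.45 and +0.26 against medians of all features (dotted) near 0. With library size alone in place of TMM factors both medians of the members are below 0, at -0.24 and -0.10. Those of all features are then -0.58 and -0.30.

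DESeq2 gave 14 calls among the members in the with-selection table, all higher in MSUS and all U1, with log2 fold changes of 0.60 to 0.64 and adjusted p of 0.0362 to 0.0448 (DESeq2, Benjamini-Hochberg). Of all features it called 0.291% as higher in MSUS and 0.3% in either direction. The 14 called rows are the 14 that share the last 20 bases of Rnu1b1, with 6 distinct sets of values, and they share most of their bases, so they are not 14 separate measurements. DESeq2 gave no adjusted p for 27 of the 73 rows, and it called no feature in the without-selection table.

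U1 is led by Gm22513, which differs from Rnu1a1 by the single base named above. Its TMM-normalised CPM in the with-selection table were 8303, 7323, 12715, 8528 and 5512 in MSUS 2, 4, 6, 8 and 14, against 5841, 4877, 5755, 5474 and 5942 in Control 3, 5, 7, 9 and 11. MSUS 14 lay within the Control range and the other 4 MSUS libraries above it. The mean was 8476 ± 2651 in MSUS and 5578 ± 429 in Control libraries, a log2 fold change of +0.60 (SE 0.27, adjusted p = 0.845 with edgeR), or -0.05 with library size alone. Without selection the row had 348, 680.1, 525, 441 and 216 CPM in the MSUS libraries and 194, 171, 339, 438 and 419 CPM in the Control libraries. There 3 MSUS libraries lay above all Controls, and the log2 fold change was +0.49 (SE 0.33, adjusted p = 0.593). All 30 distinct U1 rows were positive in the with-selection table (median +0.61), and 9 of them with library size alone. Among the without-selection libraries, 25 of 29 were positive (median +0.27), and 10 with library size alone.

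The most abundant U2 and U5 rows had log2 fold changes within 1.5 SE of 0 in both tables, while other rows of both families, given further on, had larger ones. Rnu2-10 had 2575, 1594, 2019, 1857 and 1357 CPM in the MSUS libraries of the with-selection table, against 1275, 925, 1495, 2597 and 1608 CPM in the Control libraries. The highest value was that of Control 9 and no MSUS library exceeded it. The log2 fold change was +0.25 (SE 0.28, adjusted p = 0.966), and +0.10 (SE 0.29, adjusted p = 0.901) in the without-selection table. Gm25313, the U5 row with the highest mean, had 1183, 957, 1599, 1128 and 720.1 CPM in the MSUS libraries and 741, 719, 919.7, 1248 and 823 CPM in the Control libraries of the with-selection table. The groups overlapped, with MSUS 6 above every Control and MSUS 14 among the lowest (log2 fold change +0.33, SE 0.24, adjusted p = 0.909). In the without-selection table its log2 fold change was +0.27 (SE 0.37, adjusted p = 0.773).

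Among the named minor spliceosome RNAs, U11 differed in sign between the tables. Rnu12 had 1011, 1175, 1315, 2265 and 739 CPM in the MSUS libraries and 901, 873, 1081, 700.4 and 738 CPM in the Control libraries of the with-selection table. MSUS 8 was the highest, and it had the lowest TMM factor. Its log2 fold change was +0.60 (SE 0.27, adjusted p = 0.859), and +0.42 (SE 0.32, adjusted p = 0.624) in the without-selection table. Without MSUS 8 these values were +0.31 and +0.11. Rnu11 had 345, 289.6, 378, 399.7 and 313 CPM in the MSUS libraries and 327, 262, 230.1, 315 and 345 CPM in the Control libraries of the with-selection table. The ranges overlapped, with a log2 fold change of +0.22 (SE 0.17, adjusted p = 0.915), and it was -0.24 (SE 0.25, adjusted p = 0.744) in the without-selection table, where only 7.67 to 73.3 counts per library stood behind it. Rnu7, the histone processing RNA, had 89.5, 126, 139, 158 and 71.9 CPM in the MSUS libraries and 97.0, 147, 117, 61.9 and 52.7 CPM in the Control libraries. Its log2 fold change was +0.30 (SE 0.29, adjusted p = 0.952), and its row did not pass the filter on low counts in the without-selection table.

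Gm24265, which has no named relative, had 303, 252, 328, 315 and 327 CPM in the MSUS libraries and 364, 319, 253, 299 and 257 CPM in the Control libraries of the with-selection table, with a log2 fold change of +0.03 (SE 0.16, adjusted p = 1.00), or -0.53 with library size alone. Among the without-selection libraries it was -0.09 (SE 0.23, adjusted p = 0.893). Counts summed over all rows of a family gave no calls either. In the with-selection table the unadjusted p of the U1 sum was 0.132, against 0.0396 for its leading row Gm22513 (edgeR quasi-likelihood test). Among the with-selection libraries the log2 fold changes were +0.61 for U1 (SE 0.38), +0.61 for U12 (SE 0.28), +0.54 for U6 (SE 0.31), +0.32 for U5 (SE 0.26), +0.30 for U7 (SE 0.29), +0.29 for U2 (SE 0.33) and +0.22 for U11 (SE 0.16), with adjusted p of 0.889 to 0.973. For the without-selection libraries they ran from -0.22 for U11 (SE 0.25) to +0.44 for U12 (SE 0.32), with adjusted p of 0.568 to 0.895.

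The 5 rows with the smallest unadjusted p in the with-selection table were not among the most abundant. The 14 U1 rows that share the last 20 bases of Rnu1b1, the most abundant members, came close behind. Their unadjusted p were 0.0297 to 0.0396 (edgeR quasi-likelihood test). Gm22220, a U1 row of 149 bases with 77.8% identity to Rnu1a1, had 60.3, 78.6, 54.2, 54.6 and 33.2 CPM in the MSUS libraries and 31.0, 25.0, 30.6, 44.7 and 36.6 CPM in the Control libraries of the with-selection table. All MSUS libraries but MSUS 14 lay above every Control (log2 fold change +0.69, SE 0.21, adjusted p = 0.839). The U2 row Gm25360 had 265, 179, 199, 172 and 105 CPM in the MSUS libraries and 106, 98.4, 117, 163 and 111 CPM in the Control libraries, with the same exception (+0.62, SE 0.22, adjusted p = 0.839). The U1 rows Gm25514 and Gm24046 had log2 fold changes of +0.73 (SE 0.28) and +0.63 (SE 0.25), and Gm22122, without a named relative, had +0.40 (SE 0.16), all at an adjusted p of 0.839. Gm25541 was the 1 row with a negative value, -0.16 (SE 0.16, adjusted p = 0.952). In the without-selection table Gm22220 had a log2 fold change of +0.09 (SE 0.31) and Gm25360 one of +0.32 (SE 0.20).

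Without selection, 3 of the 5 positive rows with the smallest p were U5 rows. Gm23287 had 95.5, 58.2, 117, 59.6 and 28.9 CPM in the MSUS libraries and 39.4, 26.3, 47.2, 53.6 and 42.9 CPM in the Control libraries. All MSUS libraries but MSUS 14 lay above every Control, with a log2 fold change of +0.71 (SE 0.33, adjusted p = 0.554), against +0.38 (SE 0.22, adjusted p = 0.882) in the with-selection table. Gm22265 had +0.60 (SE 0.32) and Gm24871 +0.50 (SE 0.28), and the U1 rows Gm23510 and Gm25514 had +0.71 (SE 0.34) and +0.54 (SE 0.31), at adjusted p of 0.554 to 0.563. Without MSUS 6 the values were +0.36 for Gm23287, +0.23 for Gm22265, +0.25 for Gm24871 and +0.20 for Gm25514, and without Control 11 that of Gm23510 was +0.47. On the negative side, beside Rnu11 and Gm24265, the U2 row Gm24763 had -0.29 (SE 0.31) and the U1 rows Gm24136 and Gm25818 had -0.20 (SE 0.29) and -0.16 (SE 0.29), at adjusted p of 0.747 to 0.849. Among the with-selection libraries these 3 rows had +0.20, +0.29 and +0.39.

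A fit of all 20 samples with animal as a block tested whether the MSUS effect differed between the tables. No snRNA row passed an adjusted p of 0.05 (0 of 73 rows, against 0.0% of 8109 features, edgeR interaction term). Among the rows, differences of log2 fold changes ran from -0.56 to +0.56, so equal effects in both tables are not shown. The members' median difference of log2 fold changes, with-selection minus without-selection, was +0.11, and that of all features was +0.11. An unadjusted p under 0.05 was reached by 3 of 73 members, 2 of them positive, and by 3.35% of features in either direction and 2.31% in the positive one.

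Messenger RNAs of the proteins that build and carry snRNPs were set beside the snRNAs. Of 99 genes listed, 67 were tested in the with-selection table and 2 in the without-selection table, and none passed an adjusted p of 0.05 in either direction. In the with-selection table, 34 were positive and 33 negative, with a median log2 fold change of 0.0014, unlike the snRNA median of +0.45, though the difference itself was not tested. By group, 6 of 9 tested Sm and LSm genes were positive, 4 of 7 of the U1 particle, 9 of 14 of the U2 particle, 6 of 15 of the U4/U6 and U5 particles, 0 of 1 of the minor spliceosome, and 9 of 21 of assembly, export and 3′ end formation. Prpf31, a U4/U6 particle protein, had the smallest p (+0.34, SE 0.13, adjusted p = 0.839), followed among positive genes by Sart3, which helps U4 and U6 pair (+0.45, SE 0.18, adjusted p = 0.879), and Usp39, which acts in joining the U4/U6 and U5 particles to the spliceosome (+0.39, SE 0.17, adjusted p = 0.879). On the negative side were Ints4, of the Integrator complex that cuts snRNA 3′ ends (-0.37, SE 0.21, adjusted p = 0.879), Snapc5, of the complex that starts snRNA transcription (-0.47, SE 0.28, adjusted p = 0.882), and Snrnp40 of the U5 particle (-0.48, SE 0.29, adjusted p = 0.882).

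Markers of the vesicles' source and of other cells were read in the same libraries. Transcripts of epididymal epithelium (14 of 16 listed genes found, Lcn9 and Spint4 not listed) took 0.0758 to 0.309% of MSUS and 0.202 to 0.470% of Control counts in the with-selection table. Of the 5 tested there, 3 had a positive log2 fold change (median +0.15). Sperm and spermatid transcripts (15 of 15 found) took 0.0257 to 0.0558% and 0.0296 to 0.0563%. All 12 tested sperm genes had a positive log2 fold change there, with a median of +0.50 and 4 at an unadjusted p under 0.05, and in the without-selection table, 3 of 3 were positive, with a median of +0.16. Their log2 fold changes had the same sign as those of most snRNA rows. Whether both vary together over libraries was not tested, nor was the part of sperm RNA in the snRNA values. Muscle and stroma genes were positive in 11 of 12 (median +0.34) and blood cell genes in 3 of 3 (median +0.20) in the with-selection table, which likewise was not tested. Without selection, 1 of 3 muscle and stroma genes (median -0.05), 0 of 1 blood cell gene (-0.27), 0 of 2 epithelium genes (median -0.21) and 1 of 5 nuclear RNAs (median -0.24) were positive. Other RNAs of the nucleus (9 of 9 found) were listed as a possible sign of broken cells, a reading that was not tested. They took 0.175 to 0.418% of MSUS and 0.324 to 0.657% of Control counts in the with-selection table. Of the 6 tested there, 3 were positive (median -0.03). In such bulk samples fewer vesicles or cells of a source and less RNA per vesicle or cell cannot be told apart.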

How the data were processed

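The authors deposited estimated counts per annotated RNA in a table per run, many of them not whole (69.4 and 69.6% of values above 0). The submitters' processing notes list GRCm38 as the genome build and STAR and edgeR among the tools. The assignment of reads to rows is not stated in any source used here. Of values between 0 and 1, 59.5 and 59.9% were reciprocals of whole numbers within 0.001. Counts were rounded before testing, which removed 0.0504 to 0.0992% of counts in the with-selection table and 0.266 to 0.689% in the other. Columns were assigned to samples by animal number and, per the labels' design, the second run to the table labelled with size selection.

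The members and lists were chosen with earlier results of these data known. Families were assigned by local alignment to named snRNAs (Biopython 1.88), with a score over the shorter length of at least 0.5. Tests used edgeR 4.0.16 in R 4.3.3 (filterByExpr, TMM, robust quasi-likelihood, Benjamini-Hochberg over all features, threshold 0.05) over 5 MSUS and 5 Control libraries per table, and SE come from the F statistic. Alternatives were DESeq2 1.42.0, voom in limma 3.58.1, other scalings, no filter, identical rows or families as 1 feature, and libraries left out. The script was checked on simulated data. Between the tables animals pair by the labels, which say that the same libraries were read in both runs. Deviations from group means of 8109 features correlated at 0.0418 to 0.352 within animals, and 8 of 10 animals matched themselves best. Named rows are the most abundant of each family, the 5 of smallest unadjusted p per direction and table, and the rows beside the threshold. Of the proteins, the 3 of smallest p per direction are named. U2 and U1 copies set against a named RNA, and the 3′ end comparison, were chosen after their values were seen. Intervals for single shares are not given, since the counts are estimates. The sequence of the named U5 RNA is not reported here.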

Additional observations from a re-analysis of the deposited data

Results flagged for a closer look

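In the Control group of the with-selection table, Control 9 stood far from the other 4 libraries in the U5 share of the library, with 0.583% against 0.221 to 0.302%. The same library stood apart for the U2 row Gm25360, with 163 normalised CPM against 98.4 to 117. Of 108 groups of 5 libraries examined in this way 2 were flagged, where chance flags about 1 in 20. Control 9 also had the highest share of counts on all members in both tables and the highest TMM factor of the with-selection table.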

How the results depend on the processing

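No snRNA row was called under any alternative run except DESeq2, which called 14 in the with-selection table (0 in the edgeR test), all U1. The members' median log2 fold change kept its sign when single libraries were left out, at 0.36 to 0.61 in the with-selection table, 0.11 to 0.45 in the without-selection table and 0.067 to 0.22 for the difference between tables. It was 0.76 in the with-selection table without Control 9, Control 11 and MSUS 14. Without the replicate block that pairs the animals, the difference between tables had a median of 0.11 and 0 calls.

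Scaling turned signs. With library size alone the medians were -0.24 (with-selection), -0.10 (without-selection) and -0.24 (difference between tables), and the with-selection log2 fold changes were -0.053 for Gm22513, -0.46 for Rnu2-10, -0.38 for Gm25313, -0.15 for Rnu12, -0.42 for Rnu11, -0.35 for Rnu7, -0.53 for Gm24265, -0.074 for Gm25360 and -0.19 for Gm22122. In the without-selection table they were -0.27 for Rnu2-10 and -0.087 for Gm25313. With miRNA factors the medians were -0.17 and -0.12, with -0.41 for Rnu2-10, -0.30 for Gm25313, -0.023 for Rnu12, -0.33 for Rnu11, -0.21 for Rnu7, -0.47 for Gm24265 and -0.11 for Gm22122 in the with-selection table and -0.30 for Rnu2-10 and -0.10 for Gm25313 in the other. By construction these settings drop the TMM factors over all RNAs, which differ between the groups. The medians of all features fell as well. With library size alone they were -0.58 (with-selection), -0.30 (without-selection) and -0.097 (difference between tables). With miRNA factors they were -0.52 and -0.32.

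Gm24265 was -0.052 with no filter and -0.058 without the 3 libraries, and Gm25818 was 0.30 without them in the without-selection table. With single libraries left out, signs turned for Gm24265 (-0.019 to 0.11, with-selection) and, in the without-selection table, for Rnu2-10 (-0.13 to 0.32), Gm25313 (-0.12 to 0.50), Gm24136 (-0.33 to 0.11) and Gm25818 (-0.32 to 0.14). The cause was not tested.

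Identical rows counted once took 5.27% of MSUS and 5.70% of Control counts in the with-selection table and 1.11% of MSUS counts in the other. Relative to miRNA counts the members came to 86.7% in MSUS and 87.4% in Control libraries, and in the without-selection table to 2.63% and 2.98%. Leaving out libraries one by one, an alternative chosen after seeing the data, gave mean shares of 9.69 to 12.3% (MSUS) and 10.2 to 12.3% (Control) in the with-selection table, and 1.62 to 1.85% and 1.42 to 1.96% in the other. Without-selection values rest on fewer counts, and Rnu7 could not be tested there.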
